A study of Homo sapiens with 6 samples.

Results

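The immediate early transcription factor genes of the EGR, FOS and JUN families were followed in the HER2+ breast cancer cell line MDA-MB-453, an established line, with and without knockdown of *DUSP6*, which encodes a phosphatase that removes phosphate from ERK. The genes were the 10 rows of the deposited table whose symbol was *EGR1*, *EGR2*, *EGR3*, *FOS*, *FOSB*, *FOSL1*, *FOSL2*, *JUN*, *JUNB* or *JUND*, out of 22807 genes. The table held 6 RNA-seq libraries, 3 labelled Scrambled with genotype WT and 3 labelled DUSP6 Knockdown, all grown in RPMI with serum and with no inhibitor named in the labels. A figure legend of the study gives 3 different siRNAs in each group, and the labels do not tie an siRNA to a library, so that siRNA and library cannot be told apart. The labels do not say that the libraries came from separate cultures, and the p-values therefore measure only the spread between these libraries.

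Immediate early genes are transcribed within minutes of a growth factor signal and need no new protein to do so. Activated ERK phosphorylates ternary complex factors such as ELK1, which bind beside the serum response factor SRF at CArG boxes, and this drives genes such as *EGR1* and *FOS*. EGR proteins bind GC-rich DNA through zinc fingers, whereas FOS proteins pair with JUN proteins through leucine zippers to form AP-1, which binds TGANTCA and related sites. In HER2+ breast cancer cells, HER2 and HER3 signal to ERK, and the RNA of these factors is short-lived.

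The 250 bases before the transcription start are printed for the 3 genes that passed the test (*EGR1*, *JUNB* and *JUND*), for *FOS*, and for the *EGR2* start that carried the same motif class as *EGR1*. The sequences are from RefSeq on GRCh38.p14 and read 5′ to 3′ on the strand of the gene, and capitals mark matches to the searched motifs on either strand, so that CGTCA stands for TGACG on the other strand.

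EGR1, plus strand, chr5:138465229-138465478: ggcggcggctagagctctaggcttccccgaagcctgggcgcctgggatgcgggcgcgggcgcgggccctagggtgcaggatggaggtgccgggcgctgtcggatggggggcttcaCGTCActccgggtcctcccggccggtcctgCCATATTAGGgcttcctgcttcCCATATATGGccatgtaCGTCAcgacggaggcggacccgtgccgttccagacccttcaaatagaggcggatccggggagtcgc

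EGR2, minus strand, chr10:62816367-62816616: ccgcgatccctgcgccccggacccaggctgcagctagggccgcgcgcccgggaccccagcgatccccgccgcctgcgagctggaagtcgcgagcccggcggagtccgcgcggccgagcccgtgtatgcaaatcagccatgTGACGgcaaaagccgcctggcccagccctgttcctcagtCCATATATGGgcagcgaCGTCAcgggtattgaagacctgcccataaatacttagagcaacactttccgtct

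FOS, plus strand, chr14:75278578-75278827: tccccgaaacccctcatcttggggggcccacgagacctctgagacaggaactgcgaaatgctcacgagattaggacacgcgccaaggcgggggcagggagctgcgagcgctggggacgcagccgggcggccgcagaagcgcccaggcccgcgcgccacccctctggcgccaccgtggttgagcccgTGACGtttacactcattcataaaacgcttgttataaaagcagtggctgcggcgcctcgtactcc

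JUNB, plus strand, chr19:12791236-12791485: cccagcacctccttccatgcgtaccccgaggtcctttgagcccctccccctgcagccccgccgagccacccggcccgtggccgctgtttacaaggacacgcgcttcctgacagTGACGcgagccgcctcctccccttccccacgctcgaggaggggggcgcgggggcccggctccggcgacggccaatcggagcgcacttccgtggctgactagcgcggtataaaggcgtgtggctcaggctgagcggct

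JUND, minus strand, chr19:18281623-18281872: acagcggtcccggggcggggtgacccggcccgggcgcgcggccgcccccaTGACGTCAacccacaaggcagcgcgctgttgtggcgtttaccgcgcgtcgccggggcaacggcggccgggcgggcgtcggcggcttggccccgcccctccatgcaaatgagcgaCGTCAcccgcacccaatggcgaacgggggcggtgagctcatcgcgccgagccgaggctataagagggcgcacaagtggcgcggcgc

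The promoter table held 8 of the 10 genes in 10 windows of 300 bases, from 250 before the start to 50 after it. The CArG box, written as CC, 6 letters of A or T, and GG, was found at 2 places in the *EGR1* window, from -105 to -96 and from -83 to -74 relative to the start, and at 1 place in 1 *EGR2* window, from -71 to -62. It was present in 1.29% of the 35116 promoters of the table. The short form of the cAMP response element, TGACG, was present in at least 1 window of all 8 genes and in 24.6% of all promoters, and in *FOS* it lay from -64 to -60. The full element TGACGTCA, which contains TGACG on both strands, was found in *JUND* from -200 to -193 and in 1.85% of all promoters. The AP-1 site TGANTCA was found in the *FOSL2* window from 4 to 10 after the start (7.71% of all promoters), and the ETS site CCGGAA in *FOSB* from -205 to -200 (17.2%). A match is a description of the letters, and a missing match says only that they are not in this window.

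Values below are the deposited normalized values, which are CPM scaled by the TMM method, and an adjusted p is that of Benjamini and Hochberg over all genes tested. The recovered depth was 45546981 to 85729785 reads per library, so that 1 read corresponded to a value between 0.0121 and 0.0202. *DUSP6* was 209, 110 and 114 in scrambled replicates 1 to 3 and 39.4, 24.5 and 35.2 in DUSP6 KD replicates 1 to 3, with a limma log2 fold change of -2.05 (SE 0.25, adjusted p = 0.000309). Every knockdown library was below every scrambled library. The 14 luminal and apocrine markers were all above the filter. Their summed value was 7061 to 8702 in scrambled and 4787 to 5204 in DUSP6 KD libraries. In the test 11 of them were lower and 1 was higher, against 24.7% lower and 19.7% higher of the 12862 genes tested. *GATA3* was at 452 to 887, and *ERBB2*, whose exon bases are shared with a neighbour to 5.53% and whose value is uncertain to that extent, was at 457 to 1068. *KRT19*, a luminal keratin, fell most in this list, by 1.81 on the log2 scale (SE 0.16, limma adjusted p = 6.49e-05), followed by *KRT7* (-1.07) and *SPDEF* (-1.05). Of the basal markers *KRT17* rose from 0.875 to 14.7 and *TP63* fell from 10.1 to 1.76, with *KRT5* and *KRT14* below 1 in every library. Of the fibroblast markers in the table *COL1A1* was at 80.7 to 192 and rose (log2 fold change 0.90), while *COL1A2*, *COL3A1*, *PDGFRB* and *LUM* were below 0.3. The endothelial markers summed to 0.422 or less, and of the blood markers *CD68* reached 5.47 and *PTPRC* 0.0809. The part of these shifts in the results below was not tested. In bulk RNA, fewer cells of a type and less RNA per cell cannot be told apart.

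Of the 10 genes, 7 had a mean value of at least 1 and were tested with limma on log2(value + 1), and *EGR2*, *EGR3* and *FOSL1* fell below this filter. *JUND* was called higher at an adjusted p under 0.05, against 19.7% of the 12862 genes tested. *EGR1* and *JUNB* were called lower, against 24.7% of all genes tested. The other 4, *FOS*, *FOSB*, *FOSL2* and *JUN*, were not called. The groups did not overlap for the same 3 tested genes: *JUND* was higher in every knockdown library, as were 26.7% of all genes tested, and *EGR1* and *JUNB* were lower in every knockdown library, as were 31.1%. With shares of this size among all genes, these counts are near what the whole table shows. The median log2 fold change was -0.38 over the 7 tested genes and -0.01 over all genes tested.

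*EGR1* showed the widest difference of the 10 genes. It encodes a zinc finger factor that is a direct output of ERK through SRF, and it lies on chromosome 5 of GRCh38, the RefSeq build of all gene positions here, from 138465479 to 138469303 on the plus strand, in 2 exons. Its normalized value was 222, 190 and 123 in scrambled replicates 1 to 3. In DUSP6 KD replicates 1 to 3 it was 87.95, 18.7 and 57.1. The highest knockdown library thus stayed below the lowest scrambled library, and the knockdown libraries differed among themselves by 4.70-fold, against 1.801-fold among the scrambled libraries. The group means were 178 ± 50.3 and 54.6 ± 34.7 (SD, n = 3), which is a 3.26-fold fall. The log2 fold change was -1.90 (SE 0.47, 95% interval -2.95 to -0.84, limma adjusted p = 0.0104). The two-sided exact permutation test gave p = 0.1, the smallest that 3 libraries against 3 allow. Without DUSP6 KD replicate 2 the log2 fold change was -1.27 and the call remained (limma adjusted p = 0.0132). Only 1 of the 12862 genes tested had a larger spread within the groups on the log2 scale than *EGR1*.

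*EGR2* and *EGR3*, paralogs with the same DNA-binding fingers, had little RNA in any library. *EGR2* (chromosome 10, 62811996 to 62819167, minus strand) was 0.208, 0.326 and 0.265 in the scrambled libraries and 0.324, 0.147 and 0.170 in the knockdown libraries, or 11 to 22 reads per library. *EGR3* (chromosome 8, 22687659 to 22693480, minus strand) was 0.253, 0.594 and 0.446 with scrambled and 0.384, 0.269 and 0.263 with knockdown. The groups overlapped for both genes. In a fit without the filter neither was called, with log2 fold changes of -0.06 and -0.13 by limma (adjusted p = 0.508 and 0.342) and of -0.36 and -0.50 by edgeR (adjusted p = 0.534 and 0.341). Adding 1 to such low values makes the limma fold changes smaller. Per kb of exon, *EGR1* made up 99.7% ± 0.133 of the RNA of the 3 EGR genes in scrambled libraries and 99.1% ± 0.564 in knockdown libraries (SD, n = 3). The summed EGR level per kb was 56.9 ± 16.01 with scrambled and 17.5 ± 11.1 with knockdown, with no overlap (two-sided exact permutation test, p = 0.1).

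**Figure D1:**
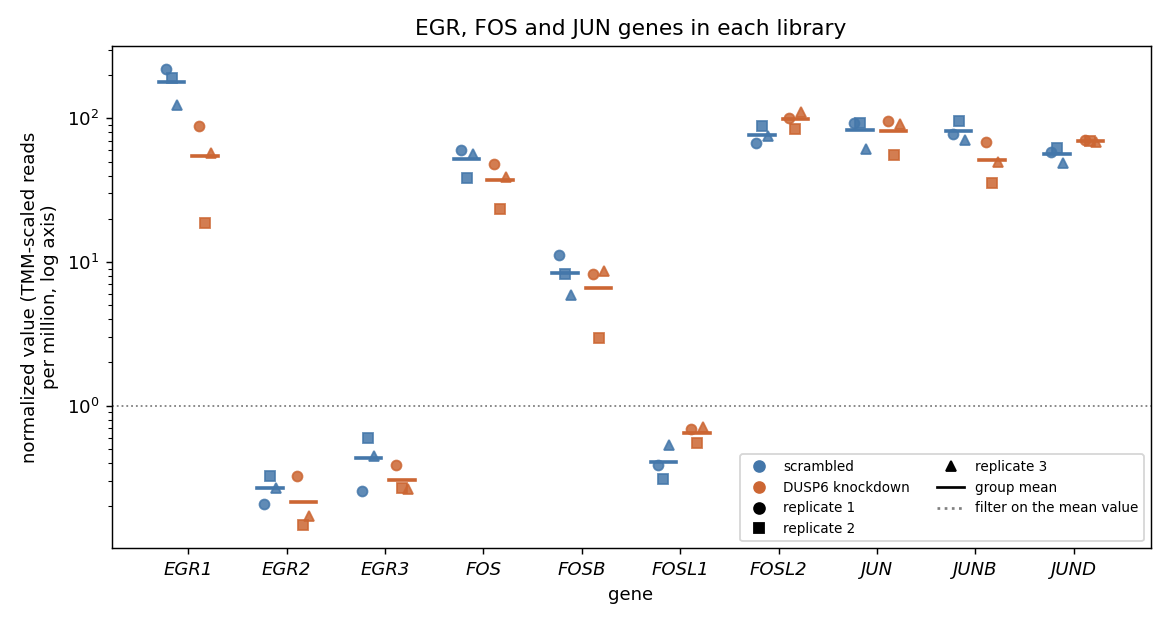
The normalized value (log axis) of each of the 10 genes is plotted for the 3 scrambled and 3 DUSP6 knockdown libraries, with marker shapes for replicates, short lines for group means and a dotted line at the filter of 1. *EGR1* knockdown libraries lie between 18.7 and 87.95, below all scrambled libraries, and *EGR2*, *EGR3* and *FOSL1* lie under the filter.

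None of the 3 tested FOS genes passed the test, and the means of *FOS* and *FOSB* were lower and those of *FOSL1* and *FOSL2* higher with knockdown. *FOS* (chromosome 14, 75278828 to 75282230, plus strand), the partner of JUN that is induced and lost fastest, was 60.1, 38.6 and 56.7 in scrambled replicates 1 to 3 and 48.3, 23.5 and 39.1 in DUSP6 KD replicates 1 to 3. The groups overlapped, since scrambled replicate 2 was below 2 of the knockdown libraries. Its log2 fold change was -0.51 (SE 0.25, 95% interval -1.08 to 0.06, limma adjusted p = 0.129), and -0.22 without DUSP6 KD replicate 2. *FOSB* (chromosome 19, 45467996 to 45475179, plus strand), which like FOS carries a transactivation domain, was 11.1, 8.26 and 5.91 with scrambled and 8.21, 2.95 and 8.67 with knockdown. The groups overlapped and the log2 fold change was -0.38 (SE 0.33, 95% interval -1.14 to 0.38, limma adjusted p = 0.379). It was 0.04 without DUSP6 KD replicate 2, -0.61 without DUSP6 KD replicate 3, -0.18 without scrambled replicate 1 and -0.59 without scrambled replicate 3.

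*FOSL2* and *FOSL1* encode FRA2 and FRA1, AP-1 subunits without the transactivation domain of FOS, and both had higher means with knockdown. *FOSL2* (chromosome 2, 28392858 to 28417317, plus strand) was 67.7, 88.1 and 75.6 in the scrambled libraries and 100.4, 84.5 and 111 in the knockdown libraries. Scrambled replicate 2 was above DUSP6 KD replicate 2, and the other knockdown libraries were above all scrambled libraries. The mean was 77.2 ± 10.3 and 98.7 ± 13.5 (SD, n = 3), and the log2 fold change was 0.35 (SE 0.13, 95% interval 0.06 to 0.65). The limma adjusted p of 0.0547 missed the threshold. *FOSL2* passed it with edgeR (0.39, adjusted p = 0.0455), DESeq2 (0.38, adjusted p = 0.0304) and quantile normalization (0.46, limma adjusted p = 0.0259), and also without DUSP6 KD replicate 2 (0.46, limma adjusted p = 0.0398) or scrambled replicate 2 (0.45, limma adjusted p = 0.026).

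*FOSL1* (chromosome 11, 65892049 to 65900545, minus strand), often abundant in basal-like breast cancer cells, was low here. It was 0.387, 0.307 and 0.530 with scrambled and 0.688, 0.550 and 0.711 with knockdown, and every knockdown library was above every scrambled library. The ratio of the means was 1.59. In the fit without the filter the log2 fold change was 0.23 (SE 0.07, limma adjusted p = 0.0483), and edgeR without the filter gave 0.64 (SE 0.30, adjusted p = 0.121), so that the call rested on the tool.

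*JUNB* and *JUND* moved in opposite directions and *JUN* did not differ beyond its spread. *JUN* (chromosome 1, 58780791 to 58784047, minus strand), the strongest activator of the family, was 93.3, 92.9 and 61.1 in the scrambled libraries and 96.0, 56.0 and 91.4 in the knockdown libraries. The groups overlapped across their whole range, and the log2 fold change was -0.04 (SE 0.22, 95% interval -0.54 to 0.47, limma adjusted p = 0.913). The interval leaves room for a difference of that size in either direction. The sign of this difference was positive with edgeR (0.01) and with quantile normalization (0.07), and without DUSP6 KD replicate 2 (0.21), scrambled replicate 1 (0.07) or scrambled replicate 2 (0.06).

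*JUNB* (chromosome 19, 12791486 to 12793315, plus strand, 1 exon), a weaker activator that can restrain JUN, was 77.3, 96.5 and 70.9 in scrambled replicates 1 to 3. In DUSP6 KD replicates 1 to 3 it was 68.3, 35.5 and 49.7, all below the lowest scrambled library. The group means were 81.6 ± 13.4 and 51.2 ± 16.4 (SD, n = 3), a 1.595-fold fall, with a log2 fold change of -0.70 (SE 0.21, 95% interval -1.18 to -0.22, limma adjusted p = 0.0257). The call was lost without DUSP6 KD replicate 2 (-0.47, limma adjusted p = 0.0893), DUSP6 KD replicate 3 (-0.70, 0.0616), scrambled replicate 1 (-0.73, 0.0573) or scrambled replicate 2 (-0.57, 0.0863), with quantile normalization (-0.61, 0.0513) and with no filter (-0.70, 0.0634). Exons of *HOOK2* on the opposite strand cover 14.2% of the *JUNB* exon, and the study's methods give default settings for read counting, which take no account of strand. Reads from the overlap cannot be told apart, and the *JUNB* value is uncertain to that extent. *HOOK2*, looked up after the values were seen, differed by 0.12 on the log2 scale (limma adjusted p = 0.365).

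*JUND* (chromosome 19, 18279694 to 18281622, minus strand, 1 exon), the JUN gene with the steadiest expression in resting cells, was 58.8, 62.0 and 48.8 with scrambled and 71.2, 69.6 and 68.0 with knockdown. The knockdown libraries lay within 1.05-fold of each other and above every scrambled library. The mean rose from 56.5 ± 6.85 to 69.6 ± 1.598 (SD, n = 3), or 1.23-fold, with a log2 fold change of 0.30 (SE 0.11, 95% interval 0.06 to 0.54, limma adjusted p = 0.0432). In 5 of the 6 fits without 1 library *JUND* was not called, and the log2 fold change was 0.29 without DUSP6 KD replicate 1, 0.30 without replicate 2, 0.32 without replicate 3, 0.33 without scrambled replicate 1 and 0.20 without scrambled replicate 3 (limma adjusted p 0.0541 to 0.134). It was also lost with no filter (limma adjusted p = 0.0592), with the median of ratios (0.052) and with eBayes without a trend (0.053).

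**Figure D2:**
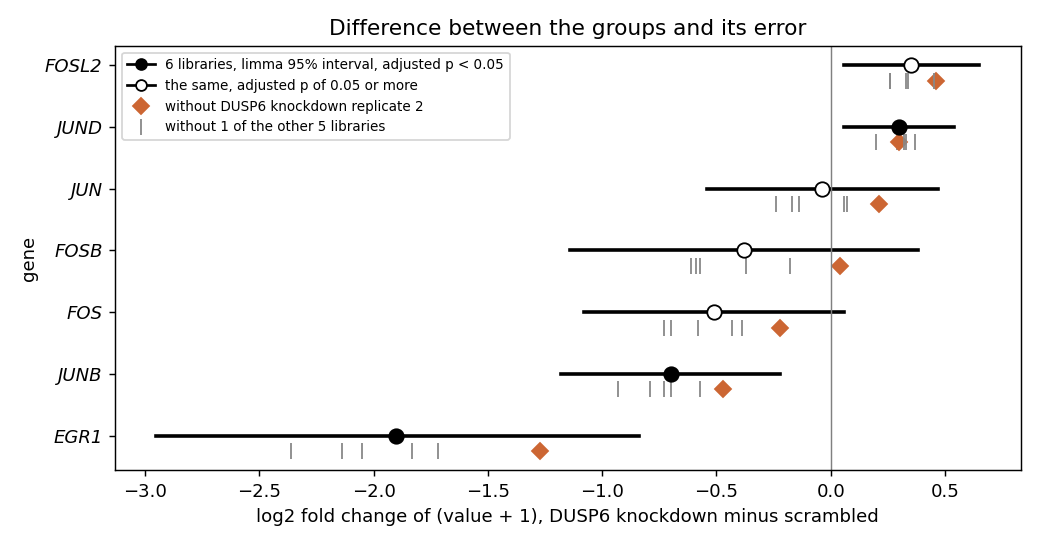
The log2 fold change of (value + 1), DUSP6 knockdown minus scrambled, is plotted for the 7 tested genes with its limma 95% interval, and filled circles mark an adjusted p under 0.05. Marks under each line give the value without 1 library, and without DUSP6 KD replicate 2 (diamonds) *EGR1* moves from -1.90 to -1.27 and *FOSB* from -0.38 to 0.04.

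DUSP6 KD replicate 2 was the lowest knockdown library for 6 of the 7 tested genes, all but *JUND*, and for 8 of all 10, while it was the lowest for 33.5% of all genes tested. Scrambled replicate 3 was the lowest scrambled library for 5 of the 7, against 33.1% of all genes tested. DUSP6 KD replicate 2 was also lowest for 30 of the 33 tested members of a list of other immediate early genes. It was lowest for 13 of the 16 tested AP-1 and EGR target genes and for 10 of the 14 ERK output genes. For a list of the bZIP class it was 14 of 23 tested, for heat shock genes 6 of 11, and for regulators of EGR and FOS 6 of 25. DUSP6 KD replicate 2 also had the lowest *DUSP6* value of the series. By the root mean square difference over all genes tested on the log2 scale, it stood 0.184 to 0.194 from the other knockdown libraries, which stood 0.116 apart, and the scrambled libraries stood 0.294 to 0.340 apart. The spread within the groups was above the median of all genes tested, 0.142 on the log2 scale, for 6 of the 7 genes.

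Per kb of exon, which allows levels to be compared between genes, *EGR1* was highest in scrambled libraries at 56.8 ± 16.03 (SD, n = 3), followed by *JUNB* (44.6 ± 7.29), *JUND* (29.3 ± 3.55), *JUN* (22.7 ± 5.11), *FOS* (16.3 ± 3.63) and *FOSL2* (10.8 ± 1.44). *FOSB* stood at 1.52 ± 0.470, *FOSL1* at 0.216 ± 0.0601, *EGR3* at 0.0856 ± 0.0340 and *EGR2* at 0.0719 ± 0.0159. The library ranges of neighbours overlapped for *EGR1* and *JUNB*, *JUND* and *JUN*, *JUN* and *FOS*, *FOS* and *FOSL2*, and *EGR3* and *EGR2*. In knockdown libraries *JUND* was highest at 36.1 ± 0.829, followed by *JUNB* (28.0 ± 8.98), *JUN* (22.4 ± 6.04), *EGR1* (17.4 ± 11.1), *FOSL2* (13.8 ± 1.88) and *FOS* (11.6 ± 3.93). Each of these overlapped with the next, and *FOSB* (1.19), *FOSL1* (0.344) and the pair of *EGR3* (0.0607) and *EGR2* (0.0576) stood apart below them. By these means *EGR1* passed from the first to the fourth place, and in knockdown libraries its range overlapped with those of its neighbours. The order rests on the union exon length, which for *FOS* is 3186 bases, against 2104 in its canonical transcript. Levels by canonical length were not compared, and the fourth place is therefore not settled.

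Within the JUN family the shares of *JUNB* and *JUND* did not overlap between the groups. *JUNB* made up 42.9%, 47.7% and 47.9% of the JUN level per kb in scrambled replicates 1 to 3 and 37.1%, 27.4% and 31.0% in DUSP6 KD replicates 1 to 3. *JUND* made up 30.9%, 29.1% and 31.3% with scrambled and 36.7%, 50.8% and 40.2% with knockdown. The two-sided exact permutation test gave p = 0.1 for each, the smallest possible, and the *JUN* share overlapped (23.4% ± 2.67 and 25.6% ± 3.56, SD, n = 3). The difference in the mean *JUND* share was 12.1 percentage points, and 8.01 without DUSP6 KD replicate 2. The summed JUN level was 96.6 ± 14.9 and 86.4 ± 14.9 per kb and overlapped between the groups.

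In the FOS family *FOS* made up 61.8%, 46.5% and 59.9% of the level per kb with scrambled and 48.9%, 36.9% and 41.3% with knockdown. *FOSL2* made up 31.0%, 47.2% and 35.6% with scrambled and 45.2%, 59.0% and 52.2% with knockdown. Both shares overlapped (two-sided exact permutation test, p = 0.2 for each). The size of a share depends on the length used. The union of exons is 3186 bases for *FOS* and 7162 for *FOSL2*, and the canonical transcripts are 2104 and 6713 bases. Whether *FOS* or *FOSL2* had the larger share with knockdown is therefore not settled. *FOSB* stayed between 2.65% and 6.55%, and *FOSL1* made up 0.747% ± 0.175 with scrambled and 1.299% ± 0.145 with knockdown, without overlap (exact permutation p = 0.1). The difference for *FOSL1* was 0.552 percentage points per kb and 0.163 where shares were not divided by length. The summed FOS level was 28.8 ± 2.36 and 26.9 ± 6.03 per kb (exact permutation p = 0.9). The 10 shares were tested in 1 family, and with a smallest possible p of 0.1 none could pass a threshold of 0.05 before or after adjustment.

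**Figure D3:**
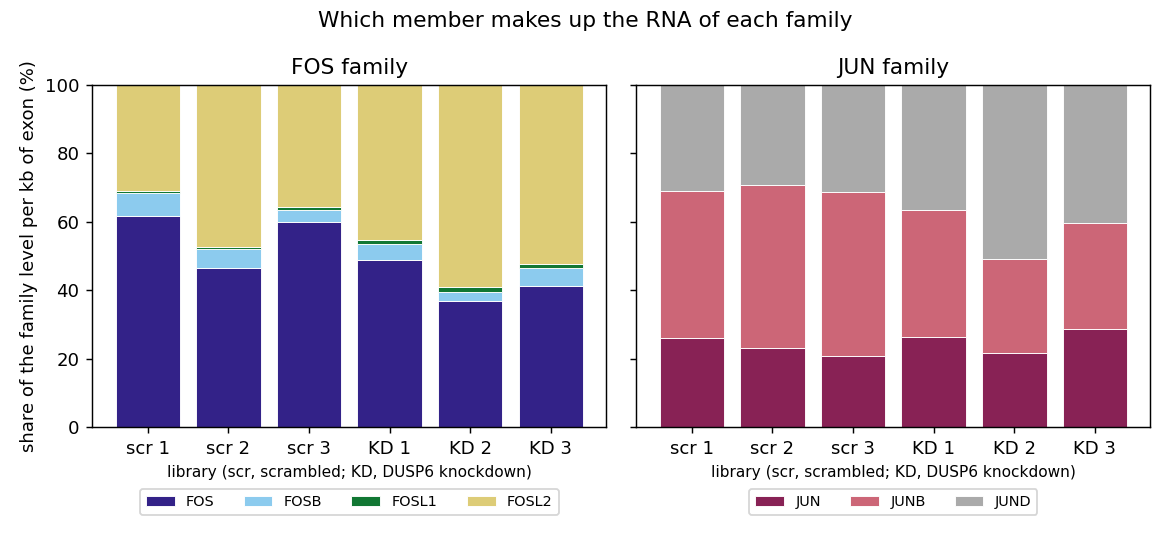
Stacked bars give the share in percent of each gene in the summed level per kb of exon of the FOS family (left) and the JUN family (right) in each library. The *JUNB* share is 42.9% to 47.9% in scrambled libraries and 27.4% to 37.1% in DUSP6 knockdown libraries, and *JUND* takes 36.7% to 50.8% with knockdown.

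Other immediate early genes included called genes in both directions. Of 35 genes in the list, 33 were tested, 5 were higher, 8 were lower and 20 were not called, with a median log2 fold change of -0.09. These counts lie near the 19.7% higher and 24.7% lower of all genes tested. The nuclear receptors *NR4A2* and *NR4A3* rose, *NR4A2* from 8.45 ± 0.997 to 34.2 ± 3.66 (SD, n = 3, log2 fold change 1.90, limma adjusted p = 1.1e-05) and *NR4A3* from 0.720 to 5.25 (1.86, and 2.91 with edgeR, which does not add 1). *ATF3*, a stress-induced bZIP factor that pairs with JUN proteins, rose from 33.7 to 90.4 (1.37, limma adjusted p = 0.00026). *DUSP5*, a nuclear phosphatase of ERK, fell from 139 to 49.9 (-1.45), *KLF2* from 24.7 to 7.77 (-1.41) and *ARC* from 6.51 to 2.58 (-1.08). *KLF2* lost its call without DUSP6 KD replicate 2 (-1.30, limma adjusted p = 0.0534). The number of lower genes was 4 without DUSP6 KD replicate 2 and 5 without scrambled replicate 1.

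Of 27 other genes of the bZIP class, to which FOS and JUN belong, 23 were tested. Of these, 10 were higher and 3 lower, against 19.7% higher and 24.7% lower of all genes tested. The median log2 fold change was 0.07. Beside *ATF3*, *BACH2* rose from 0.563 to 1.46 (0.65, and 1.43 with edgeR), and *DDIT3*, which encodes CHOP, rose from 41.9 to 65.5 (0.63). *ATF5* fell from 65.7 to 26.5 (-1.28), *JDP2*, a repressor that pairs with JUN, from 48.1 to 19.2 (-1.23), and *BATF* from 2.21 to 0.616 (-0.99, and -1.84 with edgeR). Neighbouring genes share 27.2% of the *DDIT3* exon bases and 19.5% of those of *ATF5*, and these values are uncertain. The number of higher genes was 5 without DUSP6 KD replicate 1 and 6 without DUSP6 KD replicate 3, and the number of lower genes was 6 without scrambled replicate 3.

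Among 25 tested regulators of EGR and FOS transcription or activity, of 27 in the list, 3 were higher and 6 lower, with a median log2 fold change of -0.13, where 19.7% and 24.7% of all genes tested were called. *SRF*, which binds the CArG box, fell from 59.1 ± 6.18 to 34.6 ± 3.92 (SD, n = 3, log2 fold change -0.76, limma adjusted p = 0.00112). *MRTFB*, a coactivator of SRF, fell from 87.98 to 47.9 (-0.86), and *MAPK3*, which encodes ERK1, from 153 to 90.3 (-0.75). *NAB1*, a corepressor of EGR proteins, rose from 4.65 to 8.78 (0.80), *CREM* from 11.9 to 16.6 (0.46) and the ternary complex factor gene *ELK4* from 169 to 202 (0.26). *CREM* lost its call without DUSP6 KD replicate 1 or 3 (limma adjusted p = 0.0544 and 0.073), and the number of higher genes was then 1. *ELK4* lost its call without any 1 of the knockdown libraries or without scrambled replicate 1 (limma adjusted p 0.0819 to 0.155), and with eBayes without a trend (0.0531). With quantile normalization the *ELK4* log2 fold change was 0.44.

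All 14 genes of the ERK output list were tested, 3 were higher and 7 lower, the knocked-down *DUSP6* among them, with a median log2 fold change of -0.48, beside 19.7% higher and 24.7% lower of all genes tested. *SPRY4*, a feedback inhibitor of receptor signalling, fell from 113 to 46.7 (-1.25). Its paralog *SPRY2* rose from 2.73 to 6.38 (0.98), and the ephrin receptor gene *EPHA4* rose from 26.8 to 55.0 (1.01). *PHLDA1* rose from 2.18 to 3.50 (0.48) and lost its call without DUSP6 KD replicate 1 or 3 or scrambled replicate 1 or 2 (limma adjusted p 0.0623 to 0.106), with no filter (0.0704) and with quantile normalization (0.35, adjusted p 0.0732).

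Of 27 AP-1 and EGR target genes 16 were tested, 3 were higher and 5 lower, with a median log2 fold change of -0.04, near the 19.7% and 24.7% of all genes tested. *THBS1*, encoding a secreted matrix protein, fell from 757 ± 128 to 249 ± 54.9 (SD, n = 3, log2 fold change -1.61, limma adjusted p = 0.000195). *CCND1*, encoding cyclin D1, fell from 349 to 228 (-0.61, and -0.37 with quantile normalization, with 10.4% of its exon bases shared with a neighbour and therefore uncertain) and *VEGFA* from 286 to 195 (-0.56). With quantile normalization *VEGFA* was not called (-0.36, limma adjusted p = 0.0617). *HMOX1* (1.06), *PDGFA* (0.53) and *PLAUR* (0.48, and 0.90 with edgeR) rose. The *HMOX1* groups overlapped, and its call was lost without DUSP6 KD replicate 1 or 3 or scrambled replicate 1 or 2 (limma adjusted p 0.064 to 0.075) or with no filter (0.0567), that of *PDGFA* without DUSP6 KD replicate 3 (0.0528) and that of *PLAUR* without DUSP6 KD replicate 1 (0.0566). The number of higher genes was 1 without DUSP6 KD replicate 1 or 3 and 5 without DUSP6 KD replicate 2.

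Of 11 heat shock genes, which encode chaperones and their helpers, 1 was higher and 5 were lower, with a median log2 fold change of -0.37, beside 19.7% higher and 24.7% lower of all genes tested. *BAG3* fell from 114 to 62.8 (-0.84), *HSPD1* from 1094 to 704 (-0.62) and *HSPA8* from 2826 to 1852 (-0.59), while *DNAJA1* rose from 430 to 554 (0.37). The *HSPA8* call was lost without DUSP6 KD replicate 3 (limma adjusted p = 0.0529) and with no filter (0.0924), and the *DNAJA1* call without DUSP6 KD replicate 1 or 3 (0.0606 and 0.0594). With quantile normalization the log2 fold changes were -0.38 for *HSPD1*, -0.30 for *HSPA8* and 0.62 for *DNAJA1*. The number of lower genes was 3 without DUSP6 KD replicate 3 and 8 without scrambled replicate 3. The summed value of the list was 8232 to 9662 in scrambled and 6177 to 6451 in knockdown libraries, and its part in the differences of *EGR1*, *JUNB* and *JUND* was not tested.

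**Figure D4:**
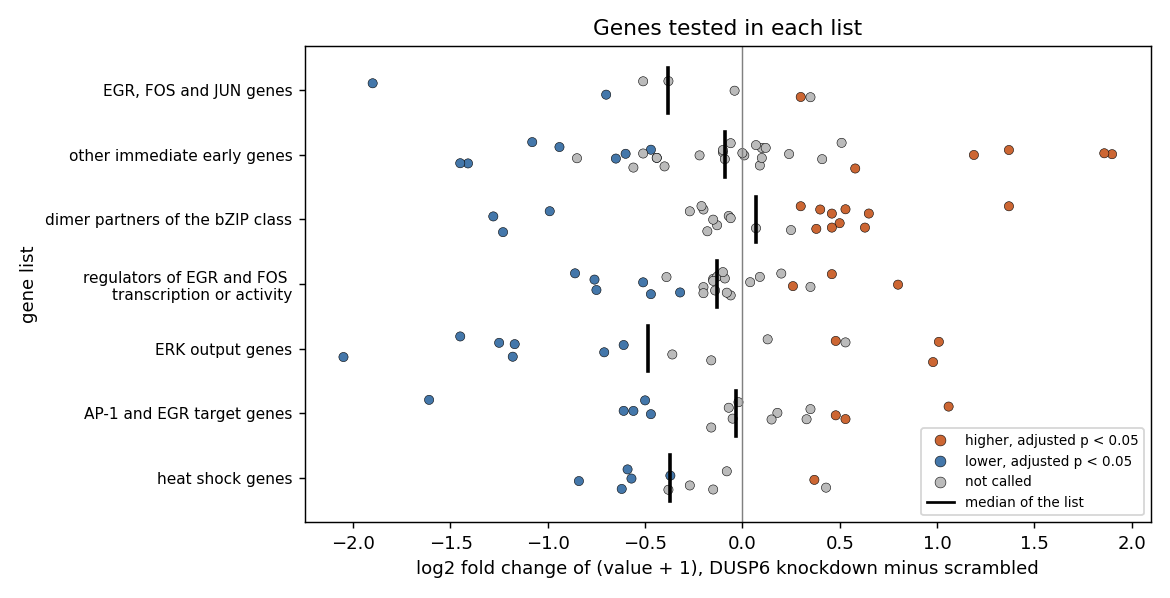
Each point is the log2 fold change of (value + 1), DUSP6 knockdown minus scrambled, of 1 tested gene, by list, coloured by limma call, with a vertical line at the median of the list (points are spread vertically for legibility). The EGR, FOS and JUN genes span -1.90 to 0.35, and the list of other immediate early genes reaches from -1.45 to 1.90. The list labelled as dimer partners holds genes of the bZIP class, whether or not they pair with FOS or JUN.

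Across the 6 libraries the genes with a pattern most like that of *EGR1* on the log2(value + 1) scale were *HES1* (Pearson r = 0.994), *TBC1D1* (0.993) and *JMJD6* (0.989). *HES1*, a target of Notch signalling, was 43.1, 38.8 and 34.8 with scrambled and 29.2, 13.6 and 21.3 with knockdown. That DUSP6 KD replicate 2 was lowest follows from its choice by likeness to *EGR1*. Those most like *FOS* were *STX1A* (0.977), *LOC494127* (0.975) and *AKIRIN2* (0.975), and those most like *JUN* were *LINC01004* (0.976), *AGAP4* (0.948) and *LIF* (0.937). These are the highest of all tested genes over 6 points that share group and library, and they are a description.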

How the data were processed

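RNA from 6 MDA-MB-453 libraries was converted with a stranded Illumina mRNA kit. Alignment to hg38 and assignment to RefSeq genes were done by the authors with Rsubread 2.0.0. The submitters' processing notes also name bcl2fastq and edgeR. The deposited values were a normalized signal on a linear scale. All values (100%, tolerance 0.001) were whole multiples of the worth of 1 read in their library, and the scaling was that of TMM in edgeR. Differences in depth are thus already removed. The TMM factors were 0.881, 0.923 and 0.968 in scrambled replicates 1 to 3 and 1.086, 1.081 and 1.082 in DUSP6 KD replicates 1 to 3. The scaling itself therefore differed between the groups. The recovered depth was 45546981 to 85729785 reads, and counting error weighs most on genes with low values. No column was left without a sample.

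Values were taken as log2(value + 1), which makes the fold changes of low genes smaller. The 12862 genes with a mean of at least 1 were tested with limma 3.58.1 (lmFit, eBayes with a trend) in R 4.3.3, with Benjamini-Hochberg adjustment over all of them and calls at an adjusted p under 0.05. edgeR 4.0.16 and DESeq2 1.42.0 were run on the recovered reads as alternatives. The scripts were tested on simulated data. Shares per library were compared with two-sided exact permutation tests. Levels per kb used the union of GENCODE v44 exons, in place of the planned RefSeq exons, which were not at hand. Protein sequences were not used here. Positions and promoters were from RefSeq on GRCh38.p14, which held 22359 of 22807 gene IDs.

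All 10 genes were described, with the called genes of the largest absolute fold change in each list, up to 3 in each direction, except 1 gene that is not reported here, and the 3 genes most correlated with *EGR1*, *FOS* and *JUN*. The members and lists were chosen with earlier results of these data known, and *HOOK2* after its values were seen. Genes with over 5% of exon bases shared with a neighbour were called uncertain. Alternatives were another pseudocount, filter, scaling or tool, a replicate block, and leaving out each library. edgeR without a filter and canonical transcript lengths were chosen after seeing the data.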

Additional observations from a re-analysis of the deposited data

How the results depend on the processing

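*EGR1* was called lower in all 9 alternatives (log2 fold change -1.92 to -1.67) and in all 6 fits without 1 library (-2.36 to -1.27), and *DUSP6* likewise (-2.10 to -1.97, and -2.22 to -1.76). The number of the 7 tested genes called higher was 0 with no filter, with the median of ratios and with eBayes without a trend. It was 2 with quantile normalization, edgeR or DESeq2, and 0 to 2 without 1 library. The number called lower was 1 with no filter or with quantile normalization and 1 to 2 without 1 library. *JUN* reversed to 0.07 with quantile normalization and to 0.01 with edgeR, and ranged from -0.24 to 0.21 without 1 library. *FOSB* ranged from -0.61 to 0.04. Over all genes, 1639 were higher with a mean value of at least 10, which tests fewer genes, and 1535 to 3213 without 1 library. With quantile normalization 5 other immediate early genes were lower, against 4 to 12 without 1 library. With a mean value of at least 10, 1 ERK output gene was higher. With no filter 3 heat shock genes were lower. Without 1 library, the genes of the bZIP class numbered 5 to 10 higher and 3 to 6 lower, and the regulators 1 to 4 higher. The AP-1 and EGR targets then numbered 1 to 5 higher, and the heat shock genes 0 to 2 higher and 3 to 8 lower. In each case the cause was not tested. Of 38 other genes taken from the lists by the rule, 27 kept their call and direction under every alternative that gave a value and 0 values reversed. The filter left some low genes out of some fits, among them *BACH2* without any 1 of the knockdown libraries and *NR4A3*, *ARC*, *BATF*, *NAB1*, *SPRY2*, *KRT17* and *TP63* at a mean value of at least 10. All differences in family share between the groups kept their sign, which says nothing of the order of the members. The replicate numbers gave no sign of a pairing of the libraries. Deviations of same-numbered libraries correlated at 0.005, 0.0868 and -0.0764, and not every library correlated best with its own number. With 3 libraries per group these values cannot exclude a pairing. The replicate block gave 0 of the 7 genes called higher (*JUND*, limma adjusted p = 0.0525; *ELK4* also lost its call, 0.0666), 3 lower (with *FOS*, -0.51, limma adjusted p = 0.00612) and 2 heat shock genes higher. Without the filter, the *FOSL1* call held with limma (0.23) and not with edgeR (0.64). At 11 to 22 reads per library for *EGR2*, depth limits what could be seen.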
